A study of Mus musculus with 6 samples.

Results

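The regions described here are stretches of open chromatin that had an ATAC-seq peak in KO replicates 1 and 2 of a Fam20c knockout osteoblast line and in none of the 3 parental libraries. They are called gained regions below, and the word names that pattern of peaks, not a tested gain. Peaks of all 6 libraries were merged wherever they shared 1 bp or more, and the members were chosen by the presence of peaks in 5 of the 6 libraries, whatever KO replicate 3 showed. The rule found 2519 gained regions among 88537 merged regions on chromosomes 1 to 19 and X, outside chromosome 4 from 20 to 50 Mb, which is 2.85% of them. Among the 55036 merged regions with peaks in both KO replicates 1 and 2, gained regions made up 4.58%. The left-out stretch of chromosome 4 held 71 more regions that met the rule, among its 847 merged regions. Because presence of peaks chose the members, their number, their levels in KO replicates 1 and 2 and their absence from the parental lists are given as a description.

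The parental cells were immortalized mouse osteoblasts with floxed Fam20c alleles (OB Fam20c f/f), profiled as 3 control libraries, OB-1 to OB-3. The knockout cells (OB Fam20c KO) were made from that line with a lentivirus carrying Cre recombinase and were profiled as 3 libraries, KO-1 to KO-3. So both groups share the floxed line, the immortalization and the culture medium, and they differ in the Cre virus as well as in Fam20c. The labels do not say whether the 3 libraries of a group came from separate cultures. The deposited lists held between 62781 and 74797 peaks for 5 of the libraries and 32958 peaks for KO-3, which therefore stood apart, and OB-3 had the longest list. Read depth is not part of these lists, and the totals in the supplement of the study, not used as values here, are lowest for OB-1 and highest for KO-2, so KO-3 has the shortest list without being the shallowest library. In bulk ATAC-seq, a site open in few cells and a site weakly open in many cannot be told apart, and a missing peak means only that the caller made no call there.

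ATAC-seq uses the Tn5 transposase to cut and tag DNA that is not wrapped in nucleosomes, so its peaks mark promoters, enhancers and other regulatory DNA. Promoter peaks tend to be wide, strong and common to most cell types, whereas enhancer peaks lie in introns or between genes and differ more between cell types and cell states. Osteoblasts build bone under the transcription factors Runx2 and Sp7, and Fam20c is the Golgi kinase that phosphorylates secreted proteins of bone and teeth.

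The promoters with the strongest gained regions are shown first, leaving out 1 chromosome whose sequences are not used here, because a promoter is where a gained region bears on a named gene most directly. Each sequence is the 250 bases before a RefSeq gene start (GRCm38.p6, the mm10 build of the peak lists), read 5′ to 3′ on the strand of the gene. Capitals mark a match, on either strand, to an E-box (CAGCTG), AP-1 (TGACTCA), RUNX core (AACCAC), TCF/LEF (CTTTGAT) or TEAD (CATTCC) motif, and these motifs do not overlap in the sequences shown. Of the 6 windows, Gm4316 held a TEAD match as GGAATG, Scml2 held a RUNX core match, and the other four held none of these letters.

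Gm4316: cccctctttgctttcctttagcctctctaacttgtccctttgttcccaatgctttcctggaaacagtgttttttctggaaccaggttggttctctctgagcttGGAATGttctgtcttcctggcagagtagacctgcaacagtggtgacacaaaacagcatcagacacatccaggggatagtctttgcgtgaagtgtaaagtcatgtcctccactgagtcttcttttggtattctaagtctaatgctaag
Zfp981: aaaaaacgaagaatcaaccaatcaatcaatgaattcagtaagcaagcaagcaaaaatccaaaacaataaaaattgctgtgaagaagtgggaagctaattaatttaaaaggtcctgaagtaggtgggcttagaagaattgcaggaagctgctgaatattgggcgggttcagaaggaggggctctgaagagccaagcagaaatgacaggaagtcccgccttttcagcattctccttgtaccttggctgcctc
Epb41l4b: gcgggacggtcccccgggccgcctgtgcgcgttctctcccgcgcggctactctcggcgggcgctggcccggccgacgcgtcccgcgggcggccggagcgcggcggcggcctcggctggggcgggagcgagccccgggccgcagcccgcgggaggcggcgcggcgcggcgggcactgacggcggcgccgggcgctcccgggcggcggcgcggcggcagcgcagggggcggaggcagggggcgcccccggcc
Elovl2: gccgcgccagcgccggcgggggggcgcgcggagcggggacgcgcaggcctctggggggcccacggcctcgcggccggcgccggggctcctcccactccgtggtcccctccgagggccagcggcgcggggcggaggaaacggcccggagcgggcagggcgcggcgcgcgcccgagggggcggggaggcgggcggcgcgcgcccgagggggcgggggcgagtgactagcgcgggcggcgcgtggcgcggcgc
Scml2: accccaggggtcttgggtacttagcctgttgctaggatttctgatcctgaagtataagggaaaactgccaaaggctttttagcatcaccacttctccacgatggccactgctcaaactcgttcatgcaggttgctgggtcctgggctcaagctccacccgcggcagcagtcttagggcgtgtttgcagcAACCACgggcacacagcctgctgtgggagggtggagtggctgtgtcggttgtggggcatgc
Cfap47: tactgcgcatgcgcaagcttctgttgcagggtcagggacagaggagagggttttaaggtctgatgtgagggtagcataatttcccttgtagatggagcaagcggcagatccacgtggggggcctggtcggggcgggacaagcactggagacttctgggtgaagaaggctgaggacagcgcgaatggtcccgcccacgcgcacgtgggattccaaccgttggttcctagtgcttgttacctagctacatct

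Gm4316 is a long noncoding RNA gene, and the window shown is chr8:123172312-123172561 on the plus strand. Zfp981 (chr4:146514670-146514919, plus strand) encodes a zinc finger protein and lies in a cluster of closely similar genes, where reads of different copies can be hard to assign. Epb41l4b (chr4:57143157-57143406, minus strand) encodes a FERM domain protein of the cell cortex. Elovl2 (chr13:41220404-41220653, minus strand) encodes an enzyme that lengthens polyunsaturated fatty acids. Scml2 (chrX:161162500-161162749, plus strand) encodes a Polycomb group protein and Cfap47 (chrX:79517352-79517601, minus strand) a protein of cilia and flagella. The windows of Epb41l4b and Elovl2 had a GC content of 88.0% and 87.2% with 52 and 49 CpG sites, whereas those of the other four had 42.4% to 57.2% and 1 to 13 CpG sites.

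At Elovl2 the peaks stood at 58.0 in the KO-1 list and 56.5 in the KO-2 list, on a scale where standing is the percentile of a peak's −log10 q within its own list and 100 is the strongest. The Epb41l4b region stood at 58.5 and 56.2 in these libraries and also had a weak peak in KO-3, at 16.8. The Gm4316 region was the strongest of the 6, at 66.1 in KO-1, 71.5 in KO-2 and 15.5 in KO-3, and the widest, with 1578 bp. Zfp981 stood at 63.8 and 62.2 and Scml2 at 56.0 and 56.0, with no peak in KO-3 at either gene. Cfap47 stood at 48.0, 63.3 and 5.02 in KO-1, KO-2 and KO-3. None of these 6 promoters was called in any OB list, and the KO-3 peaks at 3 of them stood below 25 in its list.

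Across all gained regions, peaks were weak. The median standing was 17.5 in KO-1 (quartiles 9.54 and 27.9) and 19.1 in KO-2 (quartiles 10.0 and 30.8). The median −log10 q was 7.43 in KO-1 and 9.44 in KO-2, against 50.0 and 63.8 at the 46586 regions with peaks in KO-1, KO-2 and all 3 OB libraries, called shared regions below. The median fold enrichment over local background was 3.79 in KO-1 and 3.92 in KO-2, against 8.85 and 8.997 at shared regions. By the mean standing over KO-1 and KO-2, 1693 of the 2519 gained regions stood at 25 or less, 746 between 25 and 50, 79 between 50 and 75 and 1 above 75. The standing of a gained region in KO-1 followed that in KO-2 with a Spearman's rho of 0.70 across regions, which share each library and are not independent, against 0.97 at shared regions. The 5931 regions that also had a peak in 1 or 2 OB libraries, called partly shared below, lay between, with a median mean standing of 23.8 against 18.1 for gained and 62.9 for shared regions.

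**Figure D1:**
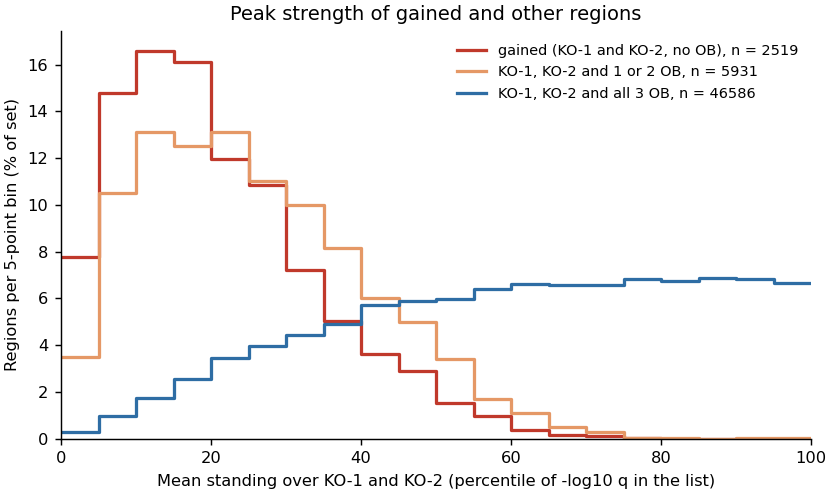
Distribution of peak strength. The x axis is the mean standing of a region's peaks over KO-1 and KO-2 (percentile of −log10 q within each list), the y axis the percentage of each set in bins of 5 points, and the lines are the gained (n = 2519), partly shared (n = 5931) and shared (n = 46586) regions. Gained regions pile up below 25, partly shared regions reach a little higher and shared regions are spread toward 100.

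Just inside the rule, the weaker of a gained region's KO-1 and KO-2 peaks had a median −log10 q of 6.65 and a minimum of 1.43, and 34 gained regions (1.35%) had a weaker peak under 2. Just outside it stood 2383 regions with peaks in KO-1, KO-2 and exactly 1 OB library. The OB peak of these regions had a median −log10 q of 6.13 and a median standing of 13.4, and their KO peaks had a median mean standing of 21.1. Of these 2383 regions, 1786 had their OB peak in OB-3, the longest list, 342 in OB-1 and 255 in OB-2.

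When every list was trimmed to its 32958 strongest peaks, the length of the KO-3 list, 1829 regions met the rule, but 66 of them overlapped the gained regions described here, which is 2.62% of the gained regions and 3.61% of the 1829. Membership thus depended on how far down each list peaks were accepted. With peaks of −log10 q of 5 or more in every list, 2453 regions met the rule and 1684 gained regions (66.9%) remained among them.

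KO-3 is the library that the rule did not use. It had a peak at 151 of the 2519 gained regions, or 5.99% (exact binomial 95% interval 5.10 to 6.99, counting error only). That share was 9.80% (9.05 to 10.6) at partly shared regions and 63.4% (63.0 to 63.9) at shared regions. The shares moved strongly with the length of the lists: with 32958 peaks from each, they were 59.5% of the 1829 regions that then met the rule, 61.2% of partly shared and 90.8% of shared regions. At the 3368 regions of the reverse pattern, with peaks in all 3 OB libraries and in neither KO-1 nor KO-2, KO-3 had a peak at 29, or 0.861% (0.577 to 1.23). Because KO-3 is 1 library with the shortest list, no test over libraries was possible.

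In each band of 25 points of standing up to 75, the KO-3 share of gained regions was below that of shared regions. Its interval lay below that of partly shared regions at the weakest peaks and overlapped it above 25. At a standing of 25 or less, the KO-3 share was 2.72% for gained regions, with an interval of 1.996 to 3.61. It was 4.57% (3.87 to 5.36) for partly shared and 6.65% for shared regions. From 25 to 50 the shares were 9.25%, 11.3% and 23.9%, and from 50 to 75 they were 44.3%, 39.6% and 71.9%. The bands do not hold standing equal between the sets. Of gained regions from 50 to 75, 39 of 79 stood between 50 and 55, against 2781 of 14962 shared regions. The 1 gained region above 75 had a KO-3 peak. The KO-3 peaks at gained regions were themselves weak, with a median standing of 14.7 in the KO-3 list. An exception was a region of 303 bp inside D5Ertd579e (chr5:36660928-36661230), chosen after its values were seen, which stood at 36.9 in KO-1, 42.7 in KO-2 and 93.6 in KO-3.

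**Figure D2:**
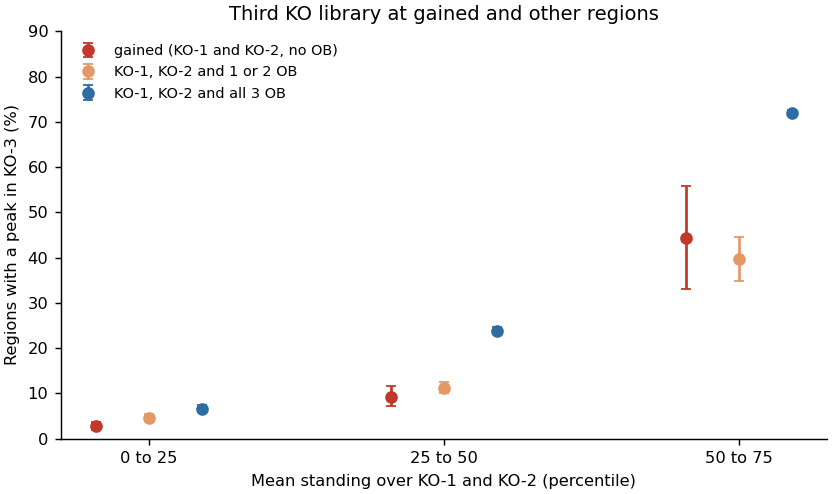
Peaks of KO-3 at regions found in KO-1 and KO-2. The x axis is the mean standing over KO-1 and KO-2 in bands of 25 points, the y axis the percentage of regions with a KO-3 peak, and the bars are exact binomial 95% intervals, which cover counting error only. The KO-3 share climbs with standing in each set, from 2.72% to 44.3% for gained and from 6.65% to 71.9% for shared regions.

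Among all regions with no OB peak, 2847 had a peak in KO-1 alone, 3165 in KO-2 alone and 954 in KO-3 alone. KO-1 and KO-2 shared 2368 without KO-3, all 3 KO libraries shared 151, and KO-3 shared 36 with KO-1 and 35 with KO-2. Regions called in 1 KO library thus outnumbered those called in several.

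Gained regions were narrow. Their median width was 384 bp (quartiles 302 and 508.5, range 190 to 1842), against 503 bp for partly shared, 957 bp for shared and 540 bp for reverse regions. Only 33 gained regions (1.31%) were wider than 1000 bp, against 45.9% of shared regions. Width moved with strength: at a standing of 25 or less the medians were 375, 499.5 and 698 bp for gained, partly shared and shared regions, and from 50 to 75 they were 558, 575.5 and 917 bp. A merged region that draws on more lists also has more chances to be widened, and 2502 gained regions (99.3%) rested on a single peak in each of KO-1 and KO-2. Together the gained regions covered 1084 kb.

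Gained regions lay farther from genes than the other regions of KO-1 and KO-2. Outside every RefSeq gene span extended by 3 kb were 843 of them, or 33.5% (31.6 to 35.3), against 29.7% (28.6 to 30.9) of partly shared and 21.9% of shared regions. Of the reverse regions, 29.9% were intergenic by this measure. At a standing of 25 or less, the shares were 33.4% (31.2 to 35.7), 28.5% (27.0 to 30.2) and 28.2% (26.8 to 29.6) for gained, partly shared and shared regions. From 25 to 50 they were 33.2% (29.9 to 36.8), 31.2% (29.3 to 33.1) and 28.2%, and from 50 to 75 they were 36.7% (26.1 to 48.3), 30.0% and 26.1%. The interval of gained regions thus lay above both other sets at the weakest peaks, overlapped that of partly shared regions from 25 to 50, and held both other values from 50 to 75. With lists of equal length the gap to partly shared regions was smaller, 29.9% against 28.7%. Regions are not replicates of a condition, and no p is given for these shares.

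Inside the span of a protein-coding gene were 1243 gained regions, or 49.3%, against 62.7% of shared regions. The median distance to the nearest protein-coding span was 639 bp, which reflects that close to equal numbers lay inside and outside, and the 1276 outside had a median distance of 34.3 kb. More than 100 kb from any protein-coding gene lay 339 gained regions, or 13.5% (12.1 to 14.9), against 10.0% of partly shared and 5.80% of shared regions. Measured to either end of a gene span, gained regions had a median distance of 26.7 kb, against 21.0 kb for partly shared and 10.2 kb for shared regions. Within 1 kb of such an end were 137 gained regions (5.44%) and 25.6% of shared regions. These gaps moved with strength, as 54.6% of shared regions above a standing of 75 lay within 1 kb of an end. At a standing of 25 or less the shares were 5.32%, 7.83% and 8.19% for gained, partly shared and shared regions. Their median distances to an end were then 25357, 18992 and 17907 bp.

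RefSeq promoter windows, 300 bases from 250 before to 50 after a gene start, were overlapped by 99 gained regions, or 3.93% (3.21 to 4.76), at 65 protein-coding and 39 other genes. That share was 3.79% for partly shared, 3.21% for reverse and 21.4% for shared regions, and at a standing of 25 or less it was 3.19%, 3.39% and 4.65% for gained, partly shared and shared regions. From 25 to 50 the shares were 5.09% (3.63 to 6.92), 3.48% (2.78 to 4.30) and 4.14%. The interval of gained regions there overlapped that of partly shared regions and held the shared value. From 50 to 75 the shares were 8.86%, 8.45% and 9.37%. The window table held 17274 of the 21631 protein-coding genes, so these counts are low by the genes it lacks. A KO-3 peak was present at 12 of the 99 (12.1%), and their median standing was 23.3. Their windows had a median GC content of 55.3% and 7 CpG sites, against 61.7% and 22 in windows under shared regions and 53.0% and 7 in all 32260 windows.

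For the E-box, RUNX core, AP-1 and TCF/LEF letters, the interval of the share under gained regions held the share of all windows, and for TEAD it lay just above it. Of the 107 windows, 17 held an E-box (15.9%, against 16.4% of all windows), 12 a RUNX core (11.2% against 13.1%) and 8 an AP-1 motif (7.48% against 5.20%). A TCF/LEF motif was in 5 windows (4.67% against 3.76%). The TEAD letters were in 24 windows, or 22.4% (14.9 to 31.5), against 14.6% of all windows and 20.5% of those under partly shared regions. Such matches are descriptions of letters and not binding sites.

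Gained regions were spread over many genes. Of 16516 protein-coding genes with at least 1 merged region in their span and 3 kb on each side, 1139 (6.9%) held a gained region. Among these, 953 held 1, 134 held 2, and 52 (0.315%) held 3 or more. With noncoding genes, 56 genes held 3 or more. Genes with several gained regions were long: the median length was 21.3 kb for genes with none, 68.3 kb for genes with 1, 160 kb for genes with 2 and 324 kb for the 52. Long genes also held more regions of every kind, a median of 22 merged regions in the 52 against 2 in genes with no gained region, and 28.8% of the 52 also held a region of the reverse pattern, against 9.85%.

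The most gained regions, 5 of 52 merged regions, lay in Ttc28, a tetratricopeptide repeat gene of 410 kb. Next came 11 genes with 4 each. Transcription regulators among them were Mitf (4 of 16), the factor of melanocytes and osteoclasts, Foxn3 (4 of 13), a forkhead repressor, Zfp536 (4 of 22), a zinc finger repressor, and Ppargc1a (4 of 27), a coactivator of mitochondrial genes. Hivep3 (4 of 41) encodes the zinc finger protein Schnurri-3, known to restrain bone formation by osteoblasts. Signalling and scaffold genes were Plxna4 (4 of 9), a semaphorin receptor, Grip1 (4 of 10), a PDZ scaffold of glutamate receptors, Stk3 (4 of 23), a Hippo pathway kinase, and Ulk4 (4 of 30), a pseudokinase. Tln2 (4 of 34) encodes talin 2, which ties integrins to actin, and Oxr1 (4 of 50) a protein of oxidation resistance.

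Of the 40 genes with 3, those with the largest share of their regions were Cntnap5a (3 of 5), a neurexin family gene, Kcnj6 (3 of 9), a potassium channel, and Rhof (3 of 9), a GTPase of filopodia. Atg4a, an autophagy protease, Clvs1, a clathrin vesicle protein, Plac1, a placental gene, and Spsb4, a SOCS box gene, each had 3 of 10, and Caln1, a calcium-binding protein gene, had 3 of 12. Gxylt2, a xylosyltransferase gene, tied with Caln1 at 3 of 12 but fell outside the 20 genes that the naming rule kept. Rhof was the shortest of the 52 at 23.6 kb.

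In 19 of the 20 genes all 3 OB libraries had peaks as well. By the rule, every gained region counts for KO-1 and KO-2 and for no OB library. Higher KO-1 and KO-2 counts in genes chosen by their gained regions thus follow from the choice and are a description only. Mitf had 8, 7 and 9 regions with a peak in OB-1, OB-2 and OB-3, against 10, 12 and 3 in KO-1, KO-2 and KO-3. Grip1 had 5, 5 and 6 against 8, 9 and 4. In Hivep3, OB-3 had peaks at 33 regions, more than KO-1 with 29 and KO-2 with 28, so the libraries overlapped there in spite of the 4 gained regions. Ttc28 overlapped likewise, with 27, 29 and 35 regions in the OB and 33, 37 and 15 in the KO libraries. KO-3 had fewer regions with a peak than the lowest OB library in each of these 4 genes.

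**Figure D3:**
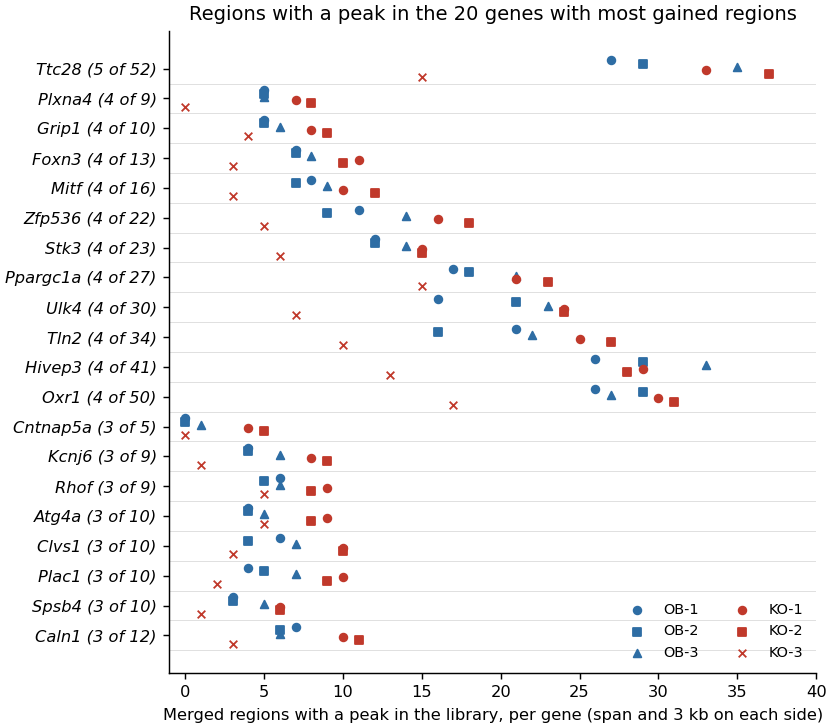
Regions with a peak by library in the 20 protein-coding genes with most gained regions. The x axis counts merged regions with a peak of that library in the gene span and 3 kb on each side, and the brackets give gained of all merged regions in the gene. KO-1 and KO-2 lie to the right of the OB libraries in genes such as Plxna4 (7 and 8 against 5), overlap with them in Hivep3, and KO-3 is at 0 in Plxna4 and Cntnap5a. The genes were chosen by gained regions, which by the rule count for KO-1 and KO-2 and for no OB library.

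Plxna4 had the longest unbroken run of gained regions, 4 neighbours over 52.7 kb (chr6:32344800-32397492) with no other merged region between them. In KO-1 they stood at 8.35, 14.7, 36.9 and 16.6 and in KO-2 at 8.95, 15.5, 24.3 and 18.6. The strongest, chr6:32377084-32377648, had a −log10 q of 17.6 in KO-1 and 12.3 in KO-2. On either side lay shared regions, and one region 271 kb from the lower-coordinate end of the gene had the reverse pattern. No region in Plxna4 had a peak in KO-3.

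Cntnap5a was nearly empty in the OB libraries, with no region in OB-1 or OB-2 and 1 in OB-3 at the edge of the gene. KO-1 had 4 and KO-2 had 5 regions with a peak there, and KO-3 had none. The gained regions stood at 41.8, 39.4 and 48.8 in KO-1 and at 35.3, 39.4 and 51.2 in KO-2, well above the median of all gained regions. In Rhof, by contrast, the 3 gained regions sat beside 5 shared regions. Its gained regions stood at 32.3, 31.2 and 22.7 in KO-1 and 26.4, 45.2 and 29.1 in KO-2, and 1 of them had a KO-3 peak at 1.07.

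**Figure D4:**
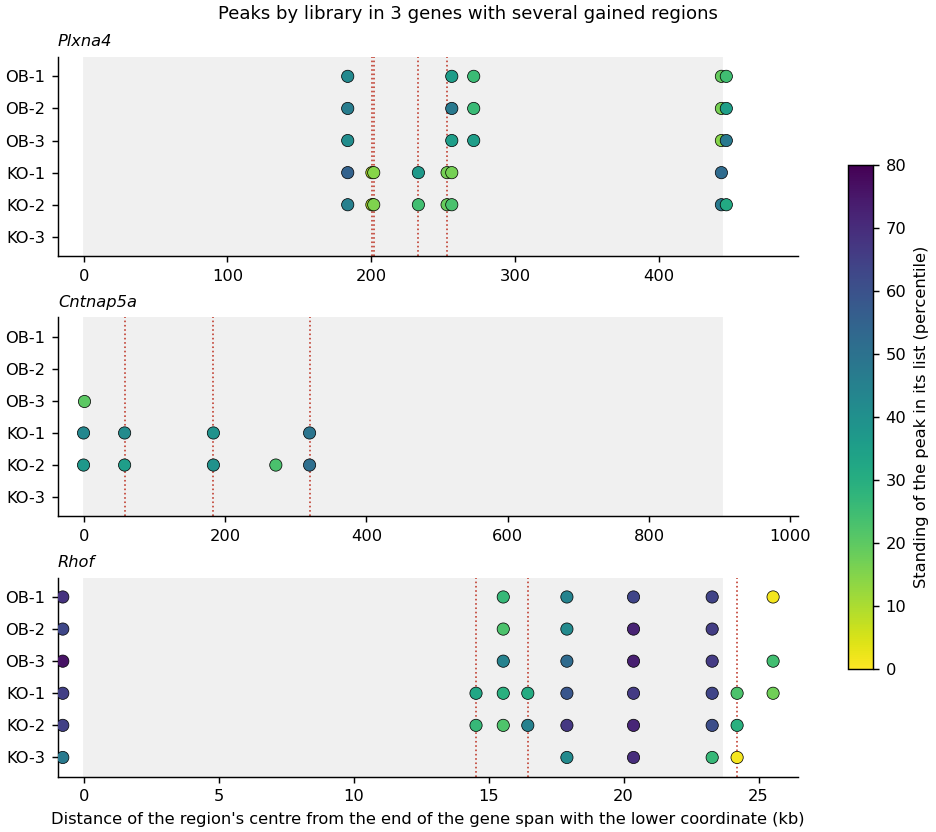
Peaks by library along Plxna4, Cntnap5a and Rhof. The x axis is the distance of a merged region's centre from the lower-coordinate end of the gene span (kb), grey marks the span, rows are libraries, colour is the standing of the peak in its list and dotted lines mark gained regions. Plxna4 and Rhof show shared regions beside the gained ones, and Cntnap5a shows peaks almost only in KO-1 and KO-2.

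Runs of gained regions were otherwise short. Of the 2519, 2285 (90.7%) had a region of another pattern on both sides, 109 runs held 2, 4 runs held 3, and the run in Plxna4 held 4. The runs of 3 lay in Glis1, a zinc finger gene, over 14.9 kb, in Ldlrad4, a gene that dampens TGF-beta signalling, over 47.4 kb, in the noncoding gene D030024E09Rik over 70.1 kb, and 886 kb from Dsel over 548 kb. The D030024E09Rik run lay 231 kb from Myc, the nearest protein-coding gene. In Glis1 the wide region chr4:107538216-107539301 stood at 43.7 in KO-1, 34.8 in KO-2 and 25.4 in KO-3. A further gained region lay within 50 kb of 612 gained regions (24.3%), and the median gap to the nearest was 166 kb.

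The strongest gained region lay in the noncoding gene G930009F23Rik (chr15:38452668-38453230), 34.2 kb from Azin1, and stood at 75.8 in KO-1, 75.7 in KO-2 and 57.4 in KO-3. Next, inside Med13l, a Mediator kinase module gene (chr5:118619752-118620309), the peaks stood at 72.6, 76.4 and 49.2. A region 574 kb from Atxn7l3b (chr10:113502884-113503626) stood at 71.2 and 77.4 and had no KO-3 peak. A region 318 kb from Adgrl3, a latrophilin gene (chr5:80700844-80701401), stood at 68.6, 74.2 and 48.6. Of the 10 strongest gained regions, 9 had a peak in KO-3, against 5.99% of all, most of which were weak. At a standing of 50 to 75, the KO-3 share was 44.3% of gained and 71.9% of shared regions.

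Ranks 5 to 10 were the Gm4316 promoter described above, regions inside Sort1, a sorting receptor, Mical2, an actin-oxidizing enzyme, and Rapgef1, a Rap guanine exchange factor, and regions 4.73 kb from Clec16a and 105 kb from Cpne8. The Sort1 region (chr3:108323020-108323416) stood at 63.4, 71.4 and 55.6 and had a −log10 q of 51.2, 93.5 and 18.5 in KO-1, KO-2 and KO-3. At Mical2 (chr7:112229154-112229534) these standings were 64.8, 68.7 and 24.6, and at Rapgef1 (chr2:29666584-29667117) 67.0, 62.9 and 38.1. Fold enrichment at Mical2 was 4.01 in KO-1 and 4.30 in KO-2, close to the median of all gained regions. The top-ranked region, in G930009F23Rik, was as close to it, at 4.07 and 4.08, while Med13l was at 11.9 and 13.5.

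For Wnt signalling, which drives osteoblast differentiation, gained regions were at 1 of 30 ligand and secreted modulator genes with a region, at 6 of 31 receptor and planar polarity genes and at 1 of 20 intracellular and TCF/LEF genes, beside 6.9% of all protein-coding genes. Counted per merged region, 0.735%, 3.125% and 1.89% were gained in these lists, in the same order, against 2.25% over all protein-coding genes. The receptor and planar polarity genes had a median length of 51.2 kb, against 22.8 kb over all. Wnt1 had 1 gained region, 1.66 kb outside its span (chr15:98787879-98788198), at 49.6 in KO-1 and 55.7 in KO-2. Daam2, a formin of Wnt signalling, had 2 of its 15 regions gained, at 7.80 and 10.5 in KO-1 and both at 12.3 in KO-2. Tcf7l1, a TCF/LEF repressor, had 2 of 17, at 25.5 and 15.9 in KO-1 and 32.0 and 17.6 in KO-2. None of the regions at these 3 genes had a KO-3 peak.

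Genes of calpains, actin and adhesion held gained regions in 9 of 35 (25.7%), and none of the 9 was a calpain gene or the calpastatin gene. Synapse and axon guidance genes held them in 11 of 44 (25%), beside 6.9% of all protein-coding genes. Both lists were made of long genes, with a median of 92.9 and 324 kb against 22.8 kb. Counted per region, 3.74% and 3.60% of their merged regions were gained, against 2.25% over all genes. In the first list Tln2 had 4, and Pxn, which encodes the focal adhesion adaptor paxillin, Prex1, a Rac exchange factor, and Myo10, a filopodial myosin, had 2 each. The stronger Pxn region (chr5:115492994-115493338) stood at 53.6, 46.5 and 23.7 in KO-1, KO-2 and KO-3. In the second list Plxna4 had 4, Slit3, a secreted guidance cue, 2 of 28, and Dlg2, a synaptic scaffold, 2 of 37.

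The lists of osteoblast and growth factor genes are read beside 6.9% of all protein-coding genes and 2.25% of merged regions at genes. Gained regions were at 2 of 18 osteoblast transcription factor genes (11.1%), Runx2 and Runx3, at 2 of 21 bone matrix and mineralization genes (9.52%), and at 5 of 33 BMP and TGF-beta genes (15.2%), among them Bmp3, a ligand, and Bmpr2, a receptor. The Runx2 region (chr17:44508142-44508702) stood at 45.3 in KO-1 and 39.4 in KO-2 and was 1 of 29 in the gene, 2 of which had the reverse pattern. In the bone matrix list, Col5a1, a fibrillar collagen gene, had 2 of 25 and Phex, the endopeptidase gene of phosphate control, 2 of 11. Gained regions were at 2 of 11 AP-1 factors (18.2%, Atf3 and Batf3), 1 of 17 FGF genes (5.88%, Fgf2), 2 of 18 cadherin and mesenchymal transition genes (11.1%, Cdh18 with 2 regions), 6 of 34 voltage-gated channels (17.6%, among them Kcnh1 and Kcnq1) and 0 of 16 E proteins, other bHLH factors and Id inhibitors. Counted per merged region, the gained share was 1.98% for osteoblast transcription factors, 3.17% for bone matrix, 3.27% for BMP and TGF-beta, 5.56% for AP-1 (2 of 36 regions) and 1.87% for channels. For FGF genes it was 1.56%, and for cadherin and mesenchymal transition genes 2.22%. The latter had a median length of 132 kb, against 22.8 kb over all protein-coding genes. Tests of these lists were not made, since their members differ in length and regions share genes.

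A further list holds genes that the study found more accessible in KO in these libraries and higher in KO in RNA-seq data published earlier, so its count is not independent evidence. Of its 117 genes with a region, 49 (41.9%) held a gained region, and 8.99% of its merged regions were gained, beside 6.9% of all protein-coding genes and 2.25% of regions. Fam189a1 and Fry had 3 each, and Cdh18 and Chn2, a Rac GTPase-activating protein, 2 each. The widest gained region in these 4 genes, chr7:65082182-65083326 in Fam189a1, had 1145 bp and stood at 55.3 in KO-1, 58.8 in KO-2 and 18.9 in KO-3.

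Peaks at osteoblast marker genes were looked up in each library, which cannot by itself establish the identity of the lines, since markers of other cell types had peaks as well. Peaks were present in every library at Runx2, Sp7, Col1a1, Col1a2, Alpl and Spp1, whereas no library had a region at Bglap or Ibsp, which encode late matrix proteins. At Fam20c, the deleted gene, there were 3 merged regions, none gained, with a peak at 2, 1 and 2 of them in the OB and 2, 1 and 1 in the KO libraries. A peak list cannot show whether the floxed exons are lost. Alpl, Sp7 and Col1a1 had no gained region.

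Markers of other cell types were open at similar numbers of genes in both groups, KO-3 aside. Of 14 chondrocyte markers, 12, 13 and 13 had a peak in the OB and 11, 11 and 9 in the KO libraries, and of 12 neural markers 10, 10 and 10 against 10, 11 and 7. Muscle markers gave 13 of 16 in each library but KO-3, which had 7. Of 12 epithelial markers, 11, 11 and 11 had a peak in the OB and 11, 9 and 4 in the KO libraries. Of 8 blood cell markers, it was 8, 7 and 8 against 6, 7 and 2. Beside the 6.9% of all protein-coding genes, gained regions were at 3 of 13 chondrocyte (23.1%, among them Col11a2 and Ihh), 2 of 11 neural (18.2%, Map2 and Nes), 1 of 13 muscle (7.69%, Myom2) and 3 of 7 endothelial marker genes (42.9%, among them Erg and Pecam1), and at no adipocyte, epithelial or blood marker gene. Per merged region, the gained share was 4.05% for chondrocyte, 3.125% for neural, 2.08% for muscle and 6.38% for endothelial markers. The endothelial share rested on 3 of 47 regions, and that of all protein-coding genes was 2.25%. At the median, endothelial and chondrocyte genes were longer than all protein-coding genes, and neural and muscle genes shorter. The adipocyte, epithelial and blood lists held only 17, 22 and 17 regions, so finding none there shows little. Whether another cell type had a part in the gained regions was not tested.

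By chromosome, gained regions were most frequent on X, where they made up 6.71% of the 1401 regions with peaks in KO-1 and KO-2, followed by chromosomes 6 with 5.98% and 15 with 5.85%. They were least frequent on chromosomes 11 with 2.66% and 13 with 3.23%. At a standing of 25 or less the gained share was 30.4% on X, 12.1% on chromosome 11, 12.7% on 13 and 13.9% on 16, against 18.7% over all. Some of these chromosomes also differed between the groups in how many regions each library had. X held 2.20% to 2.33% of the regions of the OB libraries and 2.47% to 2.60% of those of the KO libraries. Chromosome 15 held 6.91% to 7.52% in OB and 7.70% to 8.75% in KO libraries. Chromosome 13 held 4.24% to 4.30% in OB and 3.16% to 3.59% in KO libraries, and chromosome 16 held 3.97% to 4.12% against 3.45% to 3.50%. The libraries overlapped on chromosome 11, with 8.21% to 8.38% against 7.76% to 8.33%, and on chromosome 6, with 5.27% to 5.29% against 5.09% to 5.51%. On chromosomes 13 and 16 the reverse pattern made up 12.98% and 12.48% of what all 3 OB libraries had in common, against 6.33% over all and 4.14% on X. It was highest on chromosome 4, at 13.6% with 20 to 50 Mb left out, where the gained share was 4.12%. The part of chromosome copy number in these shares was not tested.

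**Figure D5:**
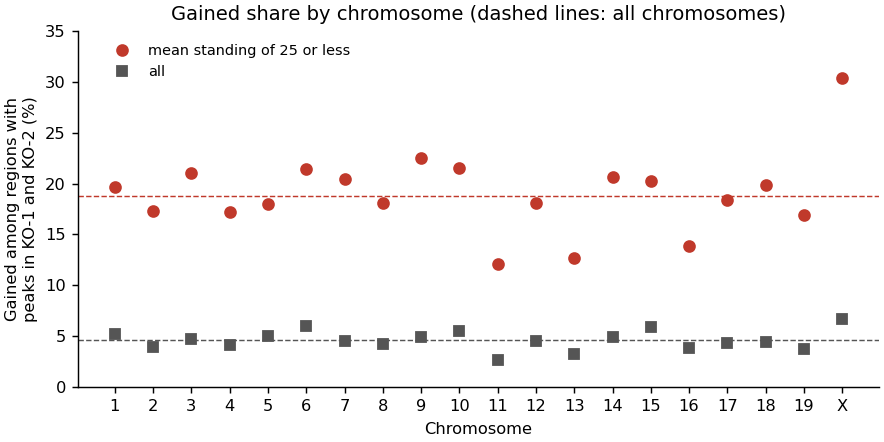
Gained share by chromosome. The y axis is the percentage of regions with peaks in KO-1 and KO-2 that are gained, for all regions (squares) and for those with a mean standing of 25 or less (circles), and dashed lines give the values over all chromosomes, 4.58% and 18.7%. X lies highest in both and chromosomes 11 and 13 lie lowest.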

How the data were processed

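Open chromatin was profiled by ATAC-seq in the floxed osteoblasts and in the knockout cells, with 3 libraries in each group. The authors removed adapters with Trimmomatic and mapped the reads with BWA on the mm10 build. They called peaks with MACS2 2.1.2, keeping those under a q-value of 0.05, and a peak list for each library was deposited. The handling of duplicates and blacklisted stretches is not given in the sources used here. Of the deposited lists, the peak positions, the summit, the fold enrichment over local background (a ratio) and the −log10 q-value of each peak were used, while the score column that MACS2 adds for genome browsers, 10 times the −log10 q in the deposited lists, was not needed. The lists hold no reads, so the precision of a missing peak could not be computed, and the read totals of the supplement were not used as values.

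Peaks sharing 1 bp or more were merged. The strongest peak of a library in a region gave its values, and standing is its percentile by −log10 q in the list. Gene spans and promoter windows came from RefSeq (GRCm38.p6). A region belonged to a gene when it touched its span extended by 3 kb, and it was intergenic when it touched no such extended span of any gene. Exons and introns were not annotated. Shares carry exact binomial 95% intervals (scipy 1.17.1), which cover counting error only. Tests between groups were not made, because the rule uses 5 of the 6 libraries and KO-3 is 1 library. The merging, the rule, the distances and the counts per gene were tested on simulated lists. Named were the 20 protein-coding genes with most gained regions, the 10 strongest regions, the 5 longest runs, listed genes with 2 or more gained regions (at most 4 a list, or 2 with 1), osteoblast markers and the 6 strongest promoters outside chromosome 18. Members, lists and alternatives were chosen with earlier results of these data known. Alternatives were stricter and equally long lists, another overlap, summit windows, each library left out, other gene spans, the left-out stretch of chromosome 4 and a required KO-3 peak.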

Additional observations from a re-analysis of the deposited data

How the results depend on the processing

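Asking for a peak in KO replicate 3 as well left 151 gained regions with an intergenic share of 25.8%, a median width of 521 bp and 0 genes holding 3 or more. With the same number of peaks from each list, the intergenic share was 29.9%, the median width 698 bp, the share with a KO-3 peak 59.5% and the number of genes holding 3 or more 25, and 66 of the 2519 gained regions were kept. With peaks of −log10 q of 5 or more, the median width was 419 bp and the KO-3 share 3.63%. Fixed windows around the summits in place of the peaks gave an intergenic share of 31.6%, a median width of 542 bp and a KO-3 share of 9.54%. Extending gene spans by 1 kb gave an intergenic share of 38.0%, and protein-coding genes only gave 47.0%. Leaving out each library in turn gave 2523 to 5760 gained regions, an intergenic share of 31.4% to 33.4%, a median width of 254 to 400 bp, a KO-3 share of 3.32% to 7.17% and 56 to 243 genes holding 3 or more. The highest counts came without KO replicate 1 (5760 regions, 243 genes), without KO replicate 2 (5521 and 209) and without OB replicate 3 (4340 and 131), as the rule then asks for fewer libraries. Of 75 alternative values, 46 stayed within the interval of the reported value or within 1.5 times a reported count. They include all 13 of the median distance to a protein-coding span, which show little, since its interval of 0 to 2260 bp reaches the lowest value the measure can take. No paired analysis was possible because the results come from no test, although the groups share replicate numbers. Peak lists without reads limit what the absence of a peak can show.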

Other observations

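At 45 protein-coding genes every merged region in the span and 3 kb on each side was gained, and at 3 of them there were 2 such regions. For comparison, 4882 genes had a single merged region, and 2.25% of merged regions over all genes were gained. These 3, chosen after their values were seen, were Gatm, the gene of the first enzyme of creatine synthesis, Trpv6, an epithelial calcium channel gene, and Stmnd1, a stathmin domain gene. Each had 2 regions with a peak in KO-1, 2 in KO-2 and none in OB-1, OB-2, OB-3 or KO-3. At Gatm the regions stood at 14.7 and 34.4 in KO-1 and at 34.3 and 47.0 in KO-2, and the stronger one, chr2:122610872-122611421, overlapped the promoter window. Gatm was also on the list of genes that the study found more accessible in these libraries and higher in KO in RNA-seq data published earlier. The accessibility part of that list rests on these same libraries, so its place there is not independent evidence.

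Along the genome, 479 windows of 5 Mb held a gained region and 48 with merged regions held none, with a median of 4 a window. The highest count, 23 gained regions among 474 with peaks in KO-1 and KO-2 (4.85%), was on chromosome 15 from 75 to 80 Mb. Chromosome 8 from 120 to 125 Mb held 22 of 355 (6.20%). Among windows with 20 or more such regions, the highest share was 20%, with 4 of 20 on chromosome 8 from 5 to 10 Mb. Chromosome 1 from 70 to 75 Mb held 21 of 174 (12.1%) and chromosome 6 from 50 to 55 Mb held 20 of 196 (10.2%), against a median of 4.55% over windows with 20 or more such regions.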
